A study of Mus musculus with 14 samples.

Results

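Peaks at 10 genes of the NF-κB system were examined in chromatin profiles of BMP6-stimulated mouse muscle stem cells (MuSCs), out of 21757 protein-coding genes. The members were *Nfkbia*, *Nfkbib*, *Nfkbie*, *Nfkbiz*, *Nfkb1*, *Nfkb2*, *Rel*, *Rela*, *Relb* and *Tnfaip3*, taken as a family by name, and a peak was assigned to a member when it overlapped, by at least 1 bp, the canonical GENCODE transcript extended by 20 kb on both sides. The study asked by CUT&Tag, in which an antibody-tethered transposase cuts next to a chromatin protein, where the BMP effectors pSMAD1/5/9 and SMAD4 sat on the genome after BMP6, with H3K27ac as the mark of active promoters and enhancers. Of its 14 libraries, 12 entered the 6 peak lists, 2 biological replicates for each antibody in stimulated and in control cells, and the 2 libraries made without a primary antibody are not analysed here. All cells came from the muscles of female 9-week-old mice of the genotype C57BL/6N(Tg(Pax7-EGFP)Tajb), and were sorted for the GFP that this transgene places under the *Pax7* gene, so that the populations were enriched for, and not limited to, one cell type. Both groups were cultured for 1 day before and 2 days after the sort, and were then kept for 6 h in serum-free medium with 200 ng/mL BMPR-1A-Fc, a soluble receptor that captures BMPs. One group then received 100 ng/mL BMP6 for 1 h, and the control group received vehicle, 4 mM HCl with 0.1% BSA, for the same time. Replicates were labelled as biological, and neither their animals nor any pooling was described.

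NF-κB is a family of dimeric transcription factors built from RelA, RelB, c-Rel (the product of *Rel*) and the processed forms of the precursors p105 (*Nfkb1*) and p100 (*Nfkb2*). The classical inhibitors IκBα, IκBβ and IκBε (*Nfkbia*, *Nfkbib* and *Nfkbie*) hold these dimers in the cytoplasm until they are degraded, IκBζ (*Nfkbiz*) acts inside the nucleus as a cofactor, and A20 (*Tnfaip3*) edits ubiquitin chains upstream and restrains the pathway. Several of these genes carry κB sites in their own promoters, so that NF-κB feeds back on its inhibitors and subunits. In muscle, NF-κB activity is known for its part in inflammation, atrophy and the restraint of myogenic differentiation.

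After BMP6, pSMAD1/5/9 peaks lay in the windows of 6 of the 10 members, namely *Nfkbia*, *Nfkbib*, *Nfkbie*, *Nfkb1*, *Nfkb2* and *Relb*, against 29.1% of all genes. In control cells 0 of the 10 had one, against 5.97% of all genes. All 6 therefore counted as bound only after BMP6, a pattern that 23.5% of all genes shared. By role, pSMAD1/5/9 was listed at 3 of the 4 IκB genes, without *Nfkbiz*, and at 2 of the 2 precursor genes. It was listed at 1 of the 3 Rel protein genes and not at *Tnfaip3*. The peak counted for *Nfkbie* lay 17954 bp beyond the end of that gene, with *Hsp90ab1* as the gene of the nearest TSS. The highest ranked of these peaks was in the first intron of *Relb*.

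The sequences under 4 of the pSMAD1/5/9 summits are shown as a description, and no peak count or rank depends on them. They are the parts of the 150 bp around each summit that lie outside annotated UTRs, on the strand of the gene, with capitals for any match to a BMP-responsive SMAD site (GGAGCC or GGCGCC), a SMAD palindrome (GTCTAGAC), an AP-1 site (TGACTCA or TGAGTCA), an E-box (CAGCTG) or the κB consensus. They were read from GRCm39, on the minus strand except at *Nfkbie*, at chr7:19362749-19362898 (*Relb*, intron 1), chr12:55539197-55539311 (*Nfkbia*, coding part of exon 1), chr17:45891974-45892123 (downstream of *Nfkbie*) and chr3:135380601-135380750 (*Nfkb1*, intron 1).
Relb: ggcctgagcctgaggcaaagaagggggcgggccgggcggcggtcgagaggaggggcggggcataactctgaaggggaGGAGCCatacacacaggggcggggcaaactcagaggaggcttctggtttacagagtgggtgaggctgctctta
Nfkbia: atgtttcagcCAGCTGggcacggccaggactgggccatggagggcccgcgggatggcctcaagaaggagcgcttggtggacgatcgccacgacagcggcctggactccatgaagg
Nfkbie: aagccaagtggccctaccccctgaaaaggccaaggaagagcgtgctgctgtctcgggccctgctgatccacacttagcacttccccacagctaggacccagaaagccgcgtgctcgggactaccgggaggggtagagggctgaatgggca
Nfkb1: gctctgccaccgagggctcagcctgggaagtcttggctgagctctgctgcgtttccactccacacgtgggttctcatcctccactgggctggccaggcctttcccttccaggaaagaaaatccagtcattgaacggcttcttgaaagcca
The *Relb* stretch holds a SMAD site close to its summit and the *Nfkbia* stretch holds an E-box. The *Nfkbie* and *Nfkb1* stretches hold none of the 5 motifs. Neither does the matching stretch at the stronger of the *Nfkbib* peaks, chr7:28473545-28473694, which is not printed.

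Promoter sequence is shown for *Nfkbia* and *Tnfaip3*, whose starts carried SMAD peaks and which each have a κB match. *Relb* also has both, but the base directly before its TSS lies in an annotated UTR, so its promoter is not shown. The printed stretches are the bases directly before the TSS in GRCm39 on the minus strand, chr12:55539433-55539582 and chr10:18891187-18891295, and here capitals mark the κB consensus alone.
Nfkbia promoter: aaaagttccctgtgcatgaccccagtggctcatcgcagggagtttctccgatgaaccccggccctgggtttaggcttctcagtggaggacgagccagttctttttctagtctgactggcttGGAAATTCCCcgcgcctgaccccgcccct
Tnfaip3 promoter: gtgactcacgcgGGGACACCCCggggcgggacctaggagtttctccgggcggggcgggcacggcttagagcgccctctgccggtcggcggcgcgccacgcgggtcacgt
In the 250 bp before the TSS, on either strand, 4 of the 10 members had a κB match, where 4.23% of all protein-coding genes had one. The matches were GGAAATTCCC starting 29 bp before the TSS of *Nfkbia*, GGGGGATTCC 86 bp before *Nfkbie*, GGGGTTTTCC 37 bp before *Relb* and GGGACACCCC 97 bp before *Tnfaip3*. For the other motifs the counts were 3 of 10 for the BMP-responsive SMAD site (31.7% of all genes), 2 of 10 for AP-1 (4.03%), 1 of 10 for the E-box (11.9%) and 0 of 10 for the palindrome (0.239%). None of the 5 motifs contains another. A match describes the letters only and is not evidence of binding.

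Each list holds the peaks that both replicates of a condition supported at an irreproducible discovery rate (IDR) of 0.05, so a gene without a listed peak may still have had signal under that threshold. The signal value of a peak is the sum of its values in 2 replicate columns, which carry no replicate number, and it has no unit. Peaks are therefore placed by their rank within their own list, where rank 1 is the strongest, and signal values are not compared between lists. The lists held 7339 and 949 pSMAD1/5/9 peaks, 12860 and 8577 SMAD4 peaks, and 78050 and 67790 H3K27ac peaks after BMP6 and in control cells. The authors had subsampled reads to equal depth per antibody, but the peak lists themselves do not give the read depth. No difference between conditions was tested. This is because a peak missing from a list has no signal value there, and no common scale of the lists is stated. H3K27ac covered the TSS of 7 of 7 MuSC markers, *Pax7*, *Myf5*, *Myod1*, *Des*, *Cdh15*, *Vcam1* and *Itga7*, in both conditions, and of 0 of 6 markers of leukocytes, endothelial and fibro-adipogenic cells, although 5 of those 6 had a peak elsewhere in their windows.

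The 10 members had 7 pSMAD1/5/9 peaks after BMP6 and 0 in control cells. Of the 7, 4 covered the TSS of the member, 5 had the member as the gene with the nearest TSS, and 4 had an IDR of at most 0.01. Their ranks ran from 11.1% to 80.5% of the list with a median of 46.8%, and 2 of the 7 stood in its top 25%. SMAD4 was listed at 5 members after BMP6 (39.3% of all genes) and at 7 in control cells (30.8%), with 11 peaks in each list. H3K27ac was listed at all 10 members in both conditions, against 74.8% of all genes after BMP6 and 73.4% in control cells.

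**Figure D1:**
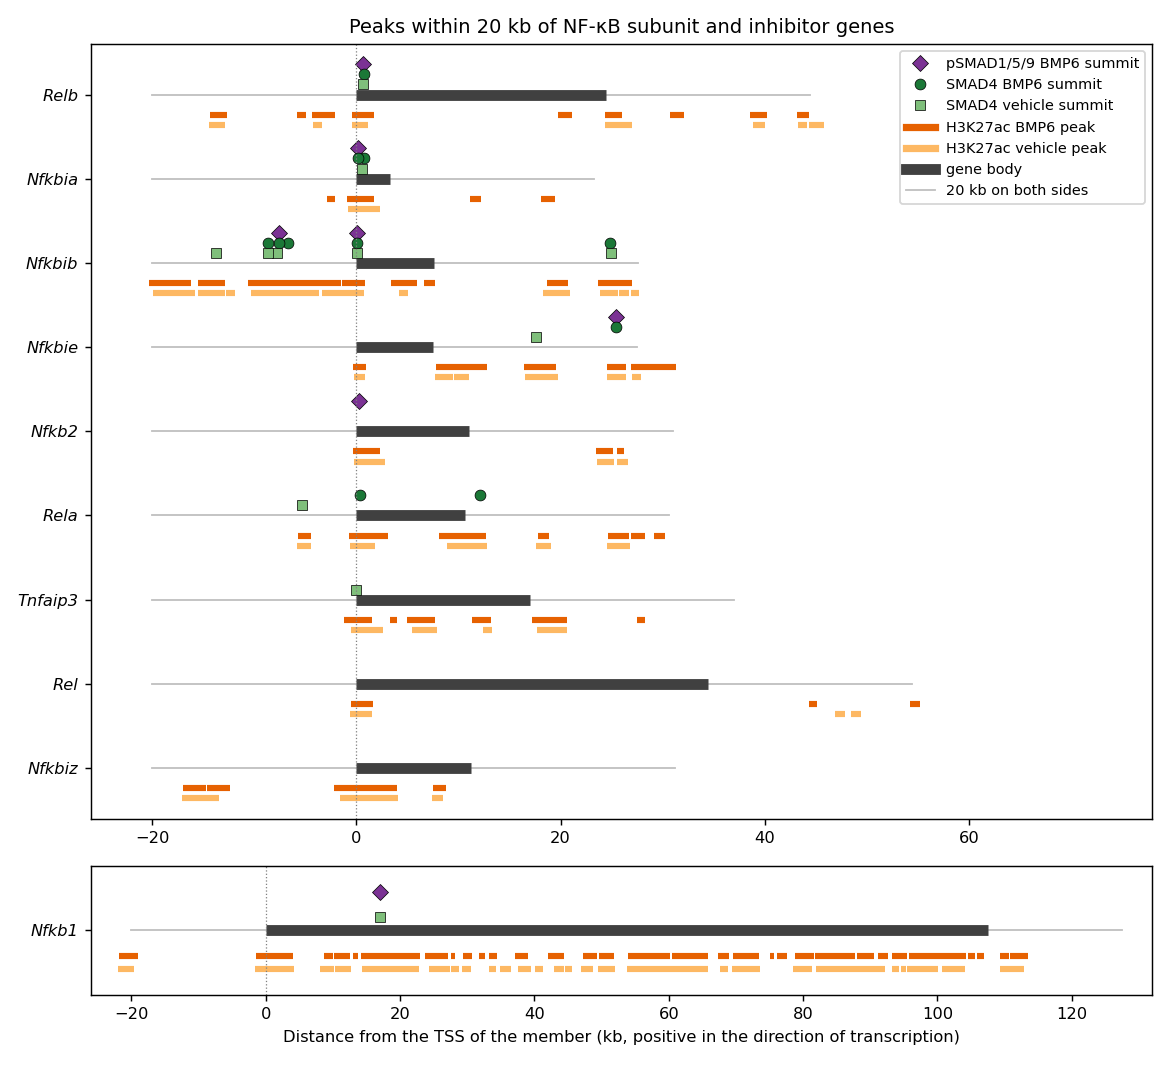
Positions of all listed peaks in the windows of the 10 members, with distance from the TSS in kb on the x axis, dark bars for gene bodies, symbols for SMAD summits and orange bars for H3K27ac peaks. *Nfkb1* has its own x axis. *Relb*, *Nfkbia*, *Nfkbib* and *Nfkb2* carry a pSMAD1/5/9 summit within 1 kb of the TSS, and *Rel* and *Nfkbiz* carry no SMAD summit.

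*Nfkbia* encodes IκBα, a well known target of NF-κB (ENSMUSG00000021025.10, chr12:55536195-55539432, minus strand, 6 exons). Its pSMAD1/5/9 peak after BMP6, chr12:55539082-55539783, covered the TSS, and the summit lay 160 bp from the TSS, in the coding part of exon 1. The 2 replicate columns gave 6814 and 10888, and the summed value ranked 4152 of 7339 (56.6%), with a −log10 IDR of 1.65. The second column alone would have placed it at 2586 and the first at 5765, so the replicates disagreed on where in the list it belonged. SMAD4 was present at the same promoter in both conditions. After BMP6 it had a summit at +110 bp, ranked 5055 of 12860, and another at +735 bp, ranked 4063. In control cells a single summit at +582 bp ranked 3068 of 8577. The closest control pSMAD1/5/9 peak fell outside the window, 22115 bp from the end of the gene, at rank 485 of 949. No other protein-coding gene lay in this window.

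*Nfkbib* encodes IκBβ (ENSMUSG00000030595.17, chr7:28458457-28466065, minus strand, 6 exons), and its TSS is 95 bp from the divergent TSS of *Sirt2*, a deacetylase gene. A peak at this shared promoter therefore lies at both genes. The pSMAD1/5/9 peak there, chr7:28465828-28466340, had its summit at +89 bp in the UTR of the first exon, ranked 3437 (46.8%), and had 12335 and 8095 in the 2 columns. A second and stronger one, chr7:28473151-28473978, lay 7555 bp upstream, within intron 3 of *Sirt2*, ranked 1644 (22.4%) and had 22748 and 9374, ranks 1173 and 3183 when taken alone. Both overlapped SMAD4 peaks in both conditions. *Nfkbib* had the most SMAD4 peaks of any member, 5 after BMP6 and 5 in control cells, with the strongest in each list again in that intron, at rank 3390 of 12860 after BMP6 and at 3012 of 8577 in control cells. One of the 5 in each list lay at the promoter of *Mrps12*, a mitochondrial ribosomal protein gene, at +24816 bp after BMP6 (rank 7808) and +24932 bp in control cells (rank 4399). A control peak at −13779 bp in intron 7 of *Sirt2* (rank 4273) overlapped no SMAD4 peak of stimulated cells.

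*Nfkbie* encodes IκBε (ENSMUSG00000023947.10, chr17:45866606-45874095, plus strand, 6 exons). Its pSMAD1/5/9 peak, chr17:45891601-45892704, stood far from its promoter, 25443 bp past the TSS and 17954 bp beyond the end of the gene. The nearest TSS was that of *Hsp90ab1*, a chaperone gene, from which the summit lay at −7818 bp. It ranked 2465 (33.6%), with 10809 and 14745 in the 2 columns, ranks 3637 and 1522 alone. A SMAD4 peak of stimulated cells had its summit at +25476 bp and ranked 6780, and none of the control peaks overlapped it. The control SMAD4 peak of this window was elsewhere, 72 bp from the *Hsp90ab1* TSS, at rank 6065. No SMAD peak of any list was found at the *Nfkbie* promoter itself. *Nfkbiz*, the gene of IκBζ (ENSMUSG00000035356.19, chr16:55631738-55642919, minus strand, 12 exons), had no SMAD peak in any of the 4 lists. The nearest pSMAD1/5/9 peak after BMP6 was 75842 bp away and closer to *Nxpe3*.

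*Nfkb1* encodes p105, the precursor of p50, and is the longest member (ENSMUSG00000028163.19, chr3:135290264-135397742, minus strand, 25 exons). The pSMAD1/5/9 peak at chr3:135380491-135381000 lay 17066 bp into the gene in intron 1. It ranked 5905 (80.5%), the lowest of the 7, with 5612 and 7123 in the columns and a −log10 IDR of 1.51. A control SMAD4 peak had its summit at +17063 bp, at rank 7359 of 8577 and with a −log10 IDR of 1.33, close to the limit of the list, whereas the SMAD4 list of stimulated cells had no peak closer than 67272 bp. Both summits fell inside a broad H3K27ac peak of 8820 bp after BMP6 (rank 1357) and of 8500 bp in control cells (rank 3874).

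*Nfkb2* encodes p100, the precursor of p52 and itself an IκB-like inhibitor (ENSMUSG00000025225.17, chr19:46292759-46303812, plus strand, 23 exons). Its pSMAD1/5/9 peak, chr19:46292611-46293360, covered the TSS with a summit at +273 bp in the UTR of the first exon. The columns gave 11078 and 4685, ranks 3537 and 6534 when taken alone, and the sum ranked 4783 (65.2%). It was the only one of the 7 pSMAD1/5/9 peaks that overlapped no SMAD4 peak in either condition, and the nearest SMAD4 peak was 79669 bp from the gene after BMP6 and 81319 bp in control cells.

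*Relb* encodes RelB, the usual partner of p52 in the noncanonical pathway (ENSMUSG00000002983.20, chr7:19339017-19363423, minus strand, 12 exons). The pSMAD1/5/9 peak at chr7:19362292-19363440 was 1149 bp wide and covered the TSS, with its summit at +599 bp in intron 1. It ranked 816 of 7339 (11.1%), and the columns, 25587 and 19530, gave ranks of 894 and 795 alone, the closest pair among the 7 peaks. Its −log10 IDR was 3.90, against at most 2.56 for the other 6. SMAD4 was listed in the same intron in both conditions. After BMP6 the columns were 9420 and 8170 with rank 2990 of 12860 (23.3%), and in control cells 13534 and 7220 with rank 1341 of 8577 (15.6%). Their summits lay at +756 bp after BMP6 and at +609 bp in control cells.

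*Rela* encodes RelA (p65), the main activating subunit (ENSMUSG00000024927.10, chr19:5687511-5698159, plus strand, 11 exons). No pSMAD1/5/9 peak was listed in its window, and the nearest after BMP6 was 41382 bp from the gene and closest to the TSS of *Pcnx3*. SMAD4 was listed at different places. Control cells had one peak 5368 bp upstream, chr19:5681821-5682630, with 8863 and 8172 in the columns and rank 1912 (22.3%). It was absent from the list of stimulated cells, which instead held a pair of weak peaks, at +386 bp in intron 1 (rank 11625, 90.4%) and at +12078 bp (rank 11957, 93.0%). H3K27ac was listed at the upstream site in both conditions, at 20.1% of the list after BMP6 and 14.2% in control cells.

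*Rel*, the gene of c-Rel (ENSMUSG00000020275.11, chr11:23686847-23721264, minus strand, 10 exons), had no SMAD peak in any of the 4 lists. Its nearest SMAD4 peaks lay 102977 bp away after BMP6 and 102968 bp in control cells, and were closest to *Sanbr*. *Rel* and *Nfkbiz* were 2 of 10 members without a SMAD peak, where 53.9% of all genes had none. *Tnfaip3*, the gene of A20 (ENSMUSG00000019850.13, chr10:18874201-18891186, minus strand, 9 exons), had no pSMAD1/5/9 peak within 576175 bp after BMP6. A control SMAD4 peak, chr10:18891016-18891345, had its summit 1 bp from the TSS, with 4357 and 2726 in the columns and rank 6133 (71.5%). In stimulated cells the nearest SMAD4 peak was 515311 bp away.

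**Figure D2:**
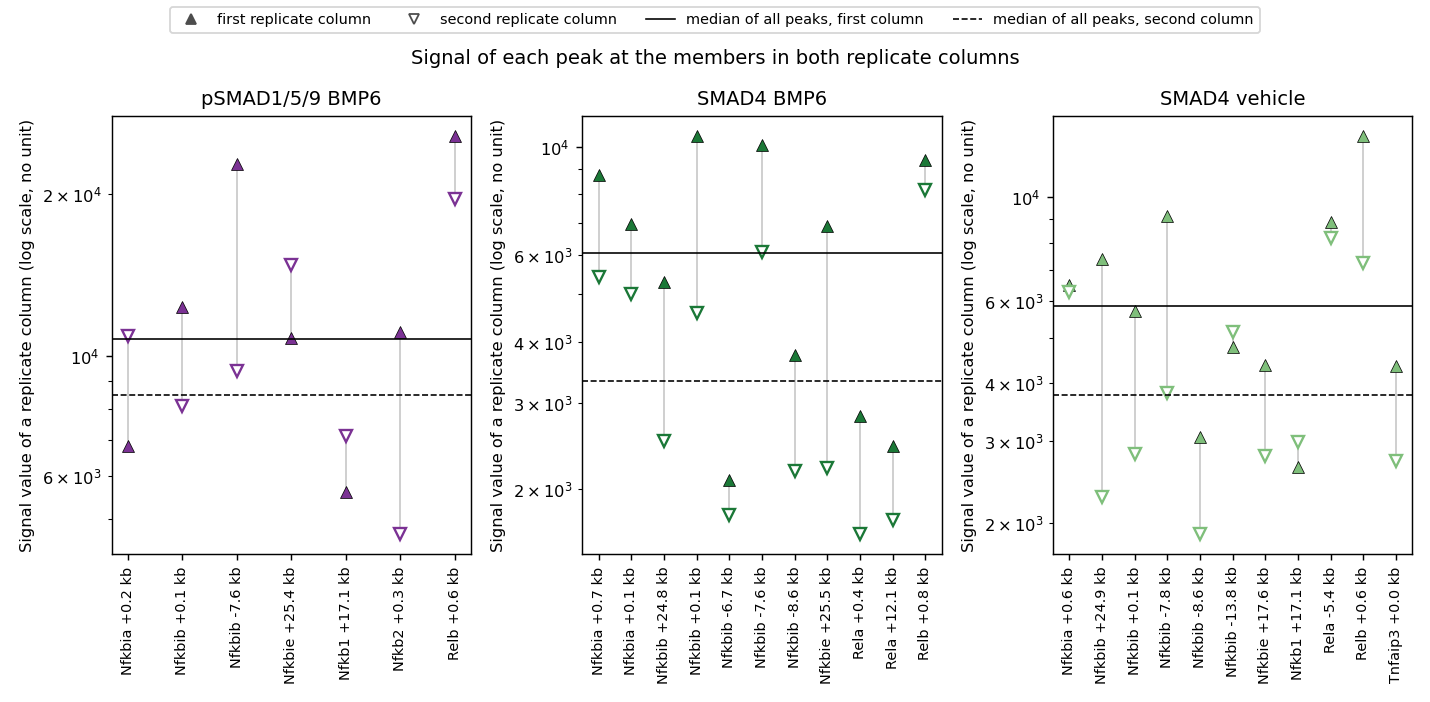
Signal value in each replicate column (y axis, log scale, no unit) for every SMAD peak at a member in the 3 lists that have any, with lines at the median of all peaks of the list in each column. The pSMAD1/5/9 peak of *Relb* stands highest in both columns, at 25587 and 19530 against list medians of 10749 and 8462, and the *Nfkb1* peak is below both medians.

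SMAD4 and pSMAD1/5/9 were listed at overlapping but unequal sets of members. *Nfkbia*, *Nfkbib*, *Nfkbie* and *Relb*, 4 of the 10, had both factors after BMP6, against 25.4% of all genes. None of the 10 had SMAD4 only after BMP6 (12.8% of all genes), whereas *Nfkb1* and *Tnfaip3* had it only in control cells (4.24%). SMAD4 of stimulated cells overlapped 5 of the 7 pSMAD1/5/9 sites and SMAD4 of control cells 5, while the shares of the whole list were 73.2% and 57.2%. Of the 11 SMAD4 peaks after BMP6, 7 overlapped a control SMAD4 peak (45.5% of the list), and 6 of the 11 control peaks overlapped one of stimulated cells (69.7%). None of the 7 pSMAD1/5/9 peaks overlapped one of control cells, as 11.4% of the list did. All 7, and all 11 SMAD4 peaks of either condition, lay on H3K27ac peaks of both conditions, as did 97.3% of the whole pSMAD1/5/9 list, 93.7% of the SMAD4 list after BMP6 and 96.1% of that of control cells.

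**Figure D3:**
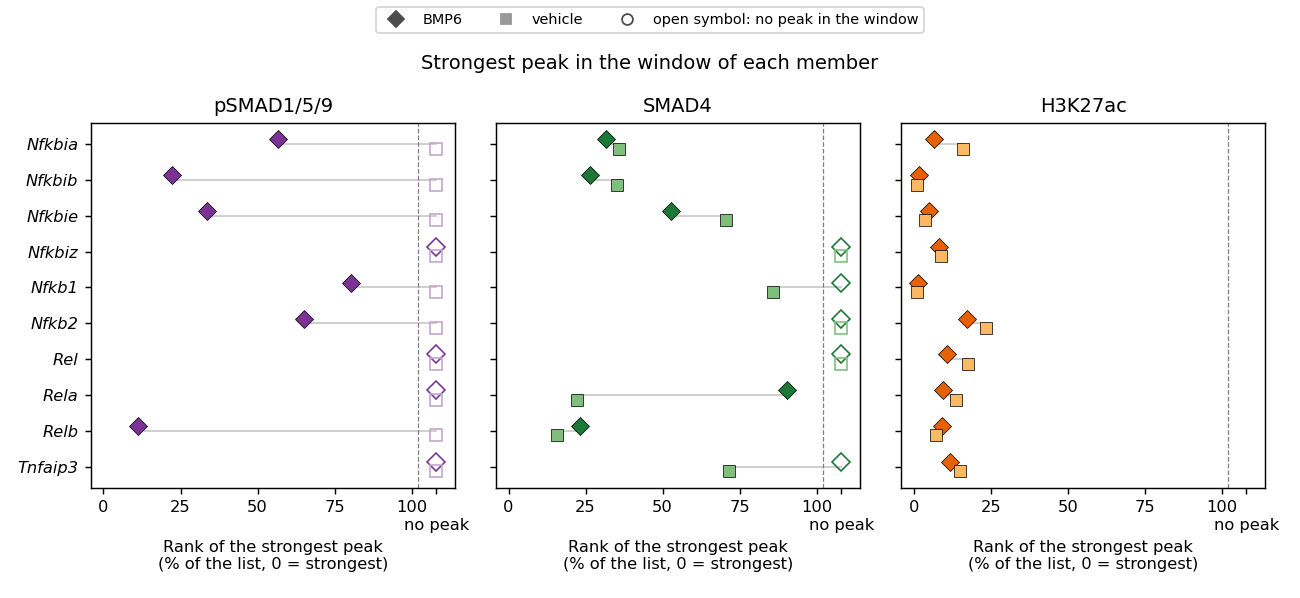
Rank of the strongest peak of each member as a percent of its list (x axis, 0 is the strongest) for the 3 antibodies, with diamonds for BMP6, squares for vehicle and open symbols for members without a listed peak. For pSMAD1/5/9 all squares are open, for SMAD4 the *Rela* symbols, at 22.3% in control cells and 90.4% after BMP6, stand for peaks at different places, and for H3K27ac all members lie within the first 23.4%.

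All 10 members had H3K27ac at the TSS in both conditions, a property of 51.4% of all genes after BMP6 and of 49.5% in control cells. Among the 10606 genes with H3K27ac at the TSS in both conditions, 45.7% had a pSMAD1/5/9 peak after BMP6, 60.0% had a SMAD4 peak after BMP6 and 48.0% had one in control cells. Set against these shares, the members' counts were 6, 5 and 7 of 10. This background was chosen after the members' H3K27ac peaks had been seen.

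*Nfkb1* had the strongest promoter mark, at rank 1031 of 78050 after BMP6 (1.32%) and 684 of 67790 in control cells (1.01%), and *Nfkbie* the weakest, at 44.4% and 54.3%. Single replicate columns placed the *Nfkb1* peak at 367 and 2421 after BMP6 and at 1372 and 423 in control cells. The TSS peak stood nearer the top of its list after BMP6 for 6 members and in control cells for 4, so there was no common direction. At *Nfkbia* it ranked 5163 after BMP6 (6.61%) and 10911 in control cells (16.1%), with column ranks of 3032 and 7562 against 8213 and 15219. At *Relb* the order was opposite, 7280 (9.33%) after BMP6 and 4967 (7.33%) in control cells.

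The windows of the members held 84 H3K27ac peaks after BMP6 and 72 in control cells, with a median per member of 5.5 and 5, where the median of all genes was 3 and 2. Peaks covered a median of 22.7% of a member's window after BMP6 and 18.3% in control cells, against 7.07% and 5.68% over all genes. The cover was larger after BMP6 at 8 members and smaller at *Nfkb2* and *Rel*. Of the 16445 genes with an H3K27ac peak in either list 80.3% had the larger cover after BMP6, a share like that of the members. *Nfkb1* was highest, at 57.6% and 55.1% with 35 and 29 peaks, and *Rel* was lowest, at 4.25% and 5.64%. Since 65 of the 84 peaks of stimulated cells overlapped a control peak (72.0% of the whole list) and 66 of the 72 control peaks overlapped one of stimulated cells (86.8%), most peaks were listed in both conditions.

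**Figure D4:**
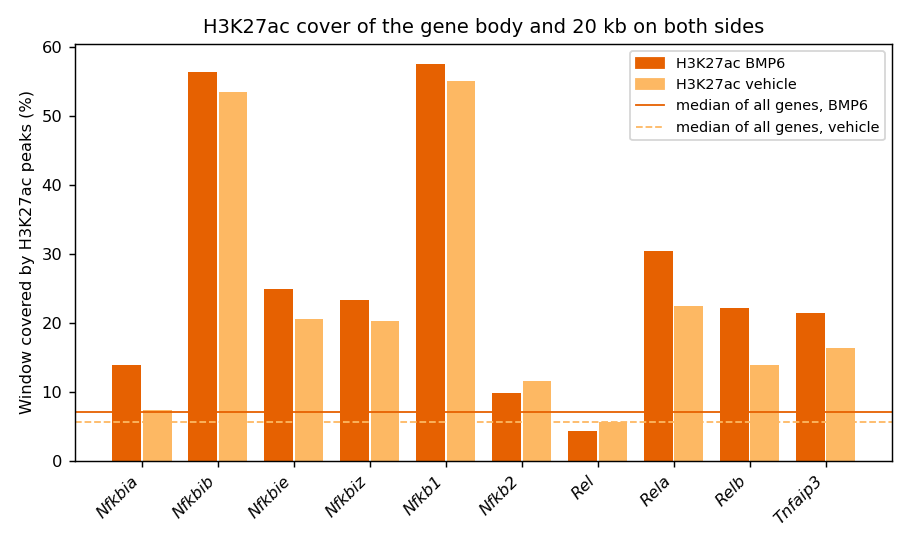
Percent of each member's window, the gene body with 20 kb on both sides, covered by H3K27ac peaks (bars, from 0), with the medians over all protein-coding genes as lines at 7.07% for BMP6 and 5.68% for vehicle. *Nfkb1* and *Nfkbib* stand above 50% in both conditions, and *Rel* lies below the median in both.

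*Nfkbia* had 4 H3K27ac peaks after BMP6 and 1 in control cells. The 3 without a control counterpart had summits at −2623, +11725 and +18428 bp and ranked at 81.7%, 44.6% and 94.4% of their list. *Nfkbiz*, although without SMAD peaks, had a second strong H3K27ac peak upstream, with its summit at −16176 bp after BMP6 (rank 6413) and at −16236 bp in control cells (rank 5963), and longer GENCODE basic transcripts of this gene start at −16298 and −16343 bp. Its column ranks, 3448 and 10157 after BMP6 and 9328 and 3461 in control cells, also overlapped. *Tnfaip3* had its strongest H3K27ac peak beyond its 3′ end, at +19007 bp after BMP6 (11.7%) and +18998 bp in control cells (15.0%), above the peak at its TSS. The columns of this peak gave ranks of 4749 and 14755 after BMP6 and of 16754 and 5387 in control cells, so the conditions overlapped.

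Motifs were counted in windows of 200 bp centred on the summits, on both strands. Among the 7 pSMAD1/5/9 windows, 1 held a BMP-responsive SMAD site (30.2% of all windows of that list), 0 the palindrome (0.518%), 1 an AP-1 site (15.5%), 2 an E-box (31.1%) and 1 the κB consensus (3.30%). Over whole peaks the SMAD site was found in 6 of the 7 (58.3% of the list) and the κB consensus in 4 (11.2%). The SMAD site count thus lay below its list share in one window and above it in the other. The 7 whole peaks had a median width of 750 bp, against 582 bp over the list, so the whole-peak comparison was not matched for length. *Relb* had the SMAD site, with 2 matches, of which the one nearer the summit is in the stretch printed above. *Nfkb1* had the AP-1 site and an E-box, *Nfkbia* the other E-box, and the *Nfkbib* promoter window the κB consensus, with 2 matches that begin 1 base apart. In the SMAD4 windows the κB consensus was found in 3 of 11 after BMP6, at *Nfkbia*, *Rela* and *Nfkbib* (3.46% of the list), and in 2 of 11 in control cells, at *Nfkbib* and *Tnfaip3* (3.42%). The SMAD site was found in 4 of 11 and 3 of 11 (28.4% and 28.2%). Windows of 1 site in different lists, such as those at the *Nfkbib* promoter, share bases, so the counts of different lists are not independent.

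Genes whose 6 strongest ranks were most like those of *Relb* were *Gm38392* and *Tsacc*, each at a Euclidean distance of 5.64, and *Cct3*, at 5.80 percentage points over the 6 lists. These 3 had the same strongest pSMAD1/5/9 peak at 10.6% of the list, so they are a single locus seen 3 times.

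The wider pathway was described with a list of 61 further genes. Of these, 23 had a pSMAD1/5/9 peak after BMP6 (37.7%) and 4 in control cells (6.56%), beside the 29.1% and 5.97% of all genes. For SMAD4 the counts were 32 and 25 of 61 (52.5% and 41.0%, against 39.3% and 30.8% of all genes). For H3K27ac they were 55 and 54 (90.2% and 88.5%, against 74.8% and 73.4%). Among all genes with H3K27ac at the TSS in both conditions, the pSMAD1/5/9 share after BMP6 was 45.7%. Their SMAD4 shares were 60.0% after BMP6 and 48.0% in control cells. How many of the 61 genes had H3K27ac at the TSS was not counted. The adaptors, kinase-family members and ubiquitin ligases that carry receptor signals had a pSMAD1/5/9 peak at 10 of 16 genes. These were *Myd88*, *Irak1*, *Irak2*, *Irak4*, *Tradd*, *Traf2*, *Traf3*, *Traf5*, *Rnf31* and *Sharpin*, and none of them had one in control cells. For 7 of these 10 the strongest such peak lay nearer to the TSS of another gene, as it did for 11 of the 23 genes in all. Downstream kinases and their partner subunits had one at 3 of 8, the partner subunits *Tab2* and *Tab3* and the kinase *Map3k14*. Receptors had one at 3 of 10 (*Tnfrsf1b*, *Il1r1* and *Tnfrsf12a*), and other regulators at 5 of 12 (*Bcl3*, *Otulin*, *Tnip1*, *Nfkbil1* and *Zc3h12a*). Among 15 NF-κB target genes, most of them for cytokines, chemokines and adhesion molecules, only *Bcl2l1* and *Csf1* had one.

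The 6 best placed of these peaks were at *Tnfrsf12a* (rank 113), *Csf1* (623), *Otulin* (781), *Rnf31* (800), *Bcl3* (1101) and *Map3k14* (1141), so that 4 of them ranked above the *Relb* peak. *Tnfrsf12a* is the receptor for TWEAK, and its peak, in the last exon and nearest to the TSS of *Thoc6*, gave 54626 and 29409 in the columns. *Bcl3*, an atypical IκB, had 5 pSMAD1/5/9 peaks, the strongest in an intron 5387 bp from the TSS. The strongest peaks of *Tnfrsf12a*, *Csf1* and *Bcl3* overlapped a control pSMAD1/5/9 peak, unlike the 7 at the members. *Map3k14* encodes NIK, the kinase that triggers processing of p100, and its peak lay nearest to the TSS of *Spata32*. The peak of *Rnf31*, a subunit of the linear ubiquitin ligase, lay 397 bp past the TSS and nearest to that of *Psme2*, and the *Otulin* peak lay 35609 bp downstream of the TSS of this linear deubiquitinase.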

How the data were processed

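The authors subsampled reads to equal depth per antibody and aligned them to GRCm39, with Bowtie2 2.5.4, SAMtools 1.21 and bedtools 2.31.1 per the submitters' processing notes. They called peaks per replicate with JAMM and kept those passing an IDR of 0.05, from the filtered calls for SMADs and from all calls for H3K27ac. The deposited lists give, per consensus peak, a signal score, the score in each of 2 replicate columns, the −log10 IDR deposited by the authors, and the summit offset. The summed score was found to equal both columns added, in every peak. Here, peaks were intersected with GENCODE M39 canonical transcripts (protein-coding, chromosome M left out) in Python 3.11.15 with pandas 2.3.3, and sequences were read with pysam 0.24.0. These transcripts replaced the RefSeq select isoforms of the study. Overlap and ranking were tested on simulated data. All 10 members were named, and of the pathway list the 6 genes with the best ranked pSMAD1/5/9 peaks. The members, gene lists and motifs were chosen with earlier results of these data known. Shares over all genes are given as background, without a test. Alternatives varied the window (proximal, 10 kb, 50 kb), the IDR (0.01), the transcripts, the assignment rule, the replicate column and the motif window.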

Additional observations from a re-analysis of the deposited data

How the results depend on the processing

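No paired analysis was possible because each condition has 1 consensus list, its columns carry no replicate number and no result comes from a test. Consensus peaks cannot be called again without a replicate. At an IDR of 0.01, pSMAD1/5/9 peaks after BMP6 fell to 4 at 3 members (*Nfkbib*, *Nfkbie* and *Relb*, with 17.3% of all genes), SMAD4 peaks to 5 at 3 members after BMP6 (25.2% of all genes) and to 4 at 4 members in control cells (16.2%). With 50 kb on both sides there were 17 pSMAD1/5/9 peaks after BMP6 and 1 in control cells, at 1 member (*Nfkbia*), and 20 and 23 SMAD4 peaks. In the proximal region of the study's methods, 1.5 kb before to 0.5 kb after the TSS, 4 pSMAD1/5/9 peaks remained after BMP6, 5 SMAD4 peaks after BMP6, 4 in control cells at 4 members, and 10 H3K27ac peaks in each condition. For the 50 kb and proximal windows no share over all genes was counted, so their member counts stand without a background. Counting only peaks whose nearest TSS was the member's left 6 SMAD4 peaks in each condition. These changes follow from how each alternative selects peaks. Of 42 recounts each, 37 of members and 28 of peaks stayed within 1.5 times. Some member recounts had little room to move, with H3K27ac at all 10 members throughout and control pSMAD1/5/9 at 0 except with 50 kb. Ranking by a single column moved 26 of 76 strongest ranks by more than 1.5 times, among pSMAD1/5/9 peaks those of *Nfkbia*, *Nfkbib* and *Nfkbie* in the second column (2586, 3183 and 1522). Gene expression, differential binding and absence of binding cannot be read from these lists.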
